A study of Bos taurus with 86 samples.

Results

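SOD1, SOD2, TXN, TXNRD1 and PRDX3 were followed across 43 single bovine embryos. The 5 genes were chosen by name, as the array rows whose only gene symbol in the platform annotation is one of them. They are 5 of the 4452 genes that the array names with a single symbol, and 12 of 11196 such rows. All 12 rows had enough values to be tested. SOD1, TXN, TXNRD1 and PRDX3 each had 1 cDNA clone spotted in duplicate, and SOD2 had 2 such clones.

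Superoxide leaks from electron transport and is converted to hydrogen peroxide by superoxide dismutases. SOD1 is the copper-zinc enzyme of the cytosol, and SOD2 is the manganese enzyme of the mitochondrial matrix. Hydrogen peroxide is then reduced by peroxiredoxins, which thioredoxins reduce in turn. TXN is the cytosolic thioredoxin and TXNRD1 the cytosolic selenoenzyme that reduces it with NADPH, while PRDX3 is a peroxiredoxin of the mitochondrial matrix. Embryos cultured outside the body are commonly exposed to more oxygen than in the oviduct, and these enzymes are often measured in them.

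Of the embryos, 14 were labelled AI (taken to mean artificial insemination), 15 were labelled IVF (in vitro fertilization) and 14 were labelled IVD, an abbreviation that is kept as a group name because its meaning is not stated. No source used here gives the embryonic stage, the donors or the culture conditions. RNA of each embryo went through 3 rounds of linear amplification and was hybridised with a reference standard RNA, amplified in 2 rounds, on 2 arrays with the dyes swapped. Each value below is the log2 ratio of embryo over reference, averaged over both arrays. The composition of the reference is not given, so a ratio has no meaning as an absolute level, and ratios of different genes were not ranked against each other. Because RNA came from whole embryos, fewer cells of a type and less RNA per cell cannot be told apart. Nothing in the labels states that the embryos of a group came from separate animals or cultures, and IVD embryos 12_1 to 12_4 share a number, so p-values measure the spread between these embryos, which may not be independent.

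The labels do not state which dye is the numerator of the deposited ratio. Cy5 over Cy3 was taken as likely, since the label protocol puts the sample in Cy5, and since 16 of 17 tested trophectoderm genes then lay above 0, with a median log2 ratio of 2.19. Under the opposite direction the sign of every log2 ratio and difference below turns, while correlations keep theirs. Genes that moved in opposite directions still do so. IVD arrays stood apart technically. Rows without a value numbered 1002 to 1872 per IVD embryo, against 3613 to 5713 per AI embryo and 3076 to 5100 per IVF embryo, and an embryo's dye-swapped arrays, once turned the same way, correlated at 0.589 to 0.767 in IVD, against 0.816 to 0.912 (AI) and 0.717 to 0.911 (IVF). For every difference that involves IVD, the group and the handling of its arrays cannot be told apart. The median of the 17 trophectoderm genes per embryo ranged from 1.70 to 2.73 in AI, from 1.10 to 3.04 in IVD and from 1.49 to 2.30 in IVF, with 1 higher and 4 lower in IVF than in AI, 7 higher and 5 lower in IVD than in AI, and 3 higher and 8 lower in IVF than in IVD. The median of 3 cumulus and granulosa genes per embryo ranged from -0.53 to 0.12 in AI, from -0.33 to 0.28 in IVD and from -0.26 to 0.21 in IVF, with 2 of the 3 higher in IVF and 1 higher in IVD than in AI, and 1 higher in IVF than in IVD. These counts are of genes with limma's adjusted p under 0.05. Of all features tested, 19.9% were higher and 17.7% lower in IVF than in AI at that threshold. The shares were 25.5% and 21.0% in IVD against AI, and 22.3% and 25.2% in IVF against IVD. The part of either list in the results was not tested.

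SOD1 and TXN were higher and SOD2 lower in IVD embryos than in both other groups. TXNRD1 was higher and PRDX3 lower in IVF embryos than in both other groups. Between IVF and AI, 2 of the 5 genes passed the limma test at an adjusted p under 0.05 (TXNRD1 higher, PRDX3 lower), against 37.7% of all 6278 features tested (19.9% higher and 17.7% lower). Between IVD and AI, 3 of the 5 passed (SOD1 and TXN higher, SOD2 lower), against 46.5% of features (25.5% higher and 21.0% lower). Between IVF and IVD all 5 passed, 2 higher and 3 lower in IVF, against 47.6% of features (22.3% higher and 25.2% lower). The first count was close to the background share. TXNRD1 was the only member whose embryos did not overlap in a comparison, IVF against AI; none of the 5 genes reached this between IVD and AI, where 2.84% of features did, or between IVF and IVD, where 3.28% did. IVF minus AI and IVD minus AI use the same AI embryos.

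**Figure D1:**
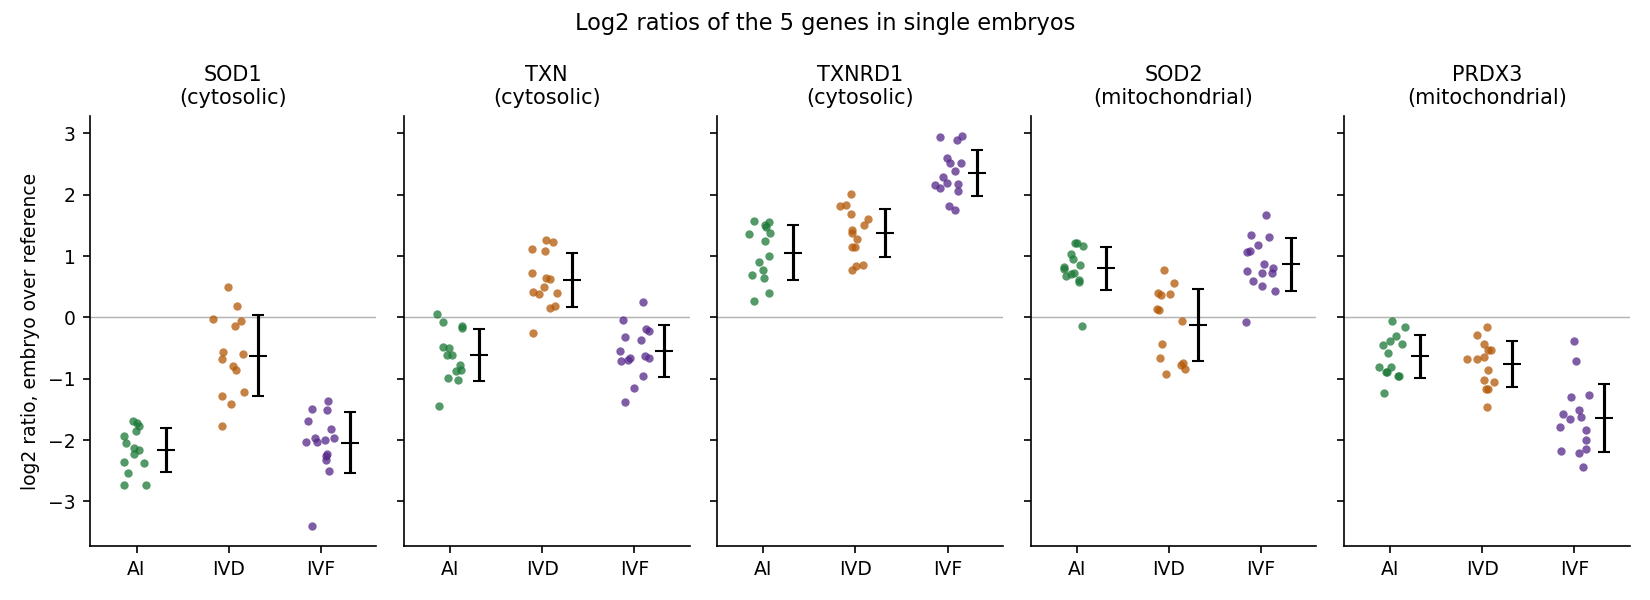
Log2 ratio of embryo over reference (vertical axis) for each of the 5 genes in AI, IVD and IVF embryos; each point is 1 embryo, the mean of its dye-swapped arrays, and the line with bars is the group mean ± SD. SOD1 and TXN sit higher in IVD, SOD2 sits lower in IVD, TXNRD1 sits higher in IVF and PRDX3 sits lower in IVF.

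SOD1, the cytosolic superoxide dismutase, had log2 ratios from -2.74 to -1.69 in AI embryos (median -2.15), from -1.77 to 0.50 in IVD embryos (median -0.64) and from -3.40 to -1.36 in IVF embryos (median -1.99). The group means were -2.16 ± 0.35 (SD, n = 14), -0.62 ± 0.66 (SD, n = 14) and -2.04 ± 0.50 (SD, n = 15). IVD embryos were the high group, and AI and IVF embryos covered much the same range. SOD1 was 1.54 ± 0.19 (SE) log2 units higher in IVD than in AI, a 2.90-fold difference (limma, adjusted p = 1.41e-08), and 13 of 14 IVD embryos lay above every AI embryo. It ranked 16 among 3433 named genes ordered from the highest IVD minus AI difference, or 16 from the lowest if the ratio runs the other way. IVF embryos fell below IVD embryos by 1.42 ± 0.19 (adjusted p = 3.89e-08), with 11 of 15 below every IVD embryo. Between IVF and AI the difference was 0.12 log2 units with a 95% confidence interval from -0.26 to 0.50 (adjusted p = 0.634).

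The lowest SOD1 value belonged to IVF embryo 7, whose arrays differed, at -2.45 with the embryo in Cy3 and -4.35 in Cy5. This embryo also had the lowest dye-swap correlation of the IVF group, 0.717. Without it, an alternative added after seeing the data, SOD1 differed by -1.32 between IVF and IVD (limma, adjusted p = 4.81e-08) and by 0.22 between IVF and AI (adjusted p = 0.327).

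SOD2, the mitochondrial superoxide dismutase, ran the other way in IVD embryos. Its log2 ratios were -0.14 to 1.21 in AI (median 0.81), -0.92 to 0.78 in IVD (median 0.027) and -0.071 to 1.68 in IVF (median 0.80). The 1.68 belonged to IVF embryo 19, which lacks the second SOD2 clone. That value came from the first clone alone, which read 0.99 log2 units above the second on average. It enters every IVF mean, difference and score below that uses SOD2 averaged over its clones. Group means were 0.80 ± 0.34, -0.12 ± 0.59 and 0.87 ± 0.43 (SD, n = 14, 14 and 15). The groups overlapped, and IVD embryos held the low end. SOD2 fell by 0.92 ± 0.17 (SE) log2 units in IVD relative to AI (limma, adjusted p = 2.83e-05), with 6 of 14 IVD embryos below every AI embryo. IVF embryos were 0.99 ± 0.17 above IVD embryos (adjusted p = 5.22e-06). The IVF minus AI difference was 0.07, with an interval from -0.27 to 0.41 (adjusted p = 0.777).

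The 2 SOD2 clones gave group differences in the same direction but did not read the same. The first had group means of 1.31 ± 0.34 in AI, 0.36 ± 0.49 in IVD and 1.33 ± 0.30 in IVF, and the second of 0.29 ± 0.42, -0.60 ± 0.75 and 0.31 ± 0.59 (SD, n = 14, 14 and 14, since IVF embryo 19 lacks it). Their correlation was 0.796 over all embryos, which includes the group differences, and 0.645 within AI, 0.801 within IVD and 0.412 within IVF, whereas duplicate spots of a clone correlated at 0.987 to 0.991. The second clone followed ACAP2, an Arf GTPase-activating protein spotted from another clone, at r = 0.986 over 42 embryos, with a mean absolute difference of 0.113 log2 units. Among 2748340 pairs of different named genes, 0 were that close. The first clone correlated with ACAP2 at 0.809. Which transcript the second clone measures was not tested, so SOD2 was also taken from the first clone alone, an alternative chosen after seeing the data. Its IVD minus AI difference was then -0.95 ± 0.14 (limma, adjusted p = 8.42e-07), its IVF minus IVD difference 0.97 ± 0.14 (adjusted p = 2.81e-07) and its IVF minus AI difference 0.02 ± 0.14 (adjusted p = 0.912).

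TXN, the cytosolic thioredoxin that hands electrons to peroxiredoxins and ribonucleotide reductase, shared the IVD pattern of SOD1. Its log2 ratios were -1.44 to 0.054 in AI (median -0.61), -0.25 to 1.26 in IVD (median 0.57) and -1.38 to 0.25 in IVF (median -0.64). Group means were -0.60 ± 0.42, 0.61 ± 0.44 and -0.55 ± 0.43 (SD, n = 14, 14 and 15). IVD embryos were high, and AI and IVF embryos overlapped across nearly their whole range. TXN was 1.21 ± 0.16 (SE) log2 units higher in IVD than in AI (limma, adjusted p = 5.69e-08), with 13 of 14 IVD embryos above every AI embryo. It fell by 1.16 ± 0.16 from IVD to IVF (adjusted p = 7.48e-08). IVF minus AI was 0.05, with an interval from -0.26 to 0.37 (adjusted p = 0.811).

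TXNRD1, the enzyme that reduces TXN, was highest in IVF. Its log2 ratios were 0.26 to 1.57 in AI (median 1.12), 0.78 to 2.01 in IVD (median 1.40) and 1.76 to 2.96 in IVF (median 2.30). Group means were 1.06 ± 0.45, 1.38 ± 0.39 and 2.36 ± 0.38 (SD, n = 14, 14 and 15). IVF embryos formed the high group, and all 15 lay above every AI embryo, a separation that 0.542% of features showed between these groups in either direction. The IVF minus AI difference was 1.30 ± 0.15 (SE) log2 units, or 2.47-fold (limma, adjusted p = 9.23e-09), which placed TXNRD1 23 among 3433 named genes ordered from the highest difference, or from the lowest if the ratio runs the other way. IVF exceeded IVD by 0.98 ± 0.15 (adjusted p = 6.41e-07), with 13 of 15 IVF embryos above every IVD embryo. IVD minus AI was 0.32 with an interval from 0.02 to 0.63, which did not pass (adjusted p = 0.0756); it passed with values as deposited (0.58, adjusted p = 0.00679) and on Cy3 arrays alone (0.38, adjusted p = 0.0312), and its adjusted p ranged from 0.00679 to 0.640 over 14 alternatives.

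PRDX3, the mitochondrial peroxiredoxin that removes hydrogen peroxide in the matrix, was lowest in IVF. Its log2 ratios were -1.23 to -0.053 in AI (median -0.70), -1.46 to -0.15 in IVD (median -0.68) and -2.43 to -0.38 in IVF (median -1.65). Group means were -0.63 ± 0.35, -0.76 ± 0.37 and -1.64 ± 0.56 (SD, n = 14, 14 and 15). IVF embryos were low except for IVF embryos 2 and 4, at -0.38 and -0.71, which lay within the AI range. PRDX3 fell by 1.00 ± 0.16 (SE) log2 units from AI to IVF (limma, adjusted p = 5.19e-06), and 13 of 15 IVF embryos lay below every AI embryo. It fell by 0.88 ± 0.16 from IVD to IVF (adjusted p = 1.71e-05). IVD minus AI was -0.13, with an interval from -0.46 to 0.21 (adjusted p = 0.552). PRDX3 was also the least repeatable of the 5 in IVF embryos, where its dye-swapped arrays correlated at 0.304, against 0.775 in AI and 0.955 in IVD. The arrays of IVF embryo 7 differed for PRDX3 as well, at -1.183 with the embryo in Cy3 and -3.235 in Cy5. Its Cy3 value alone would lie within the AI range. Without this embryo, PRDX3 differed by -0.96 between IVF and AI (limma, adjusted p = 1.18e-05) and by -0.84 between IVF and IVD (adjusted p = 4.1e-05).

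The cytosolic genes (SOD1, TXN, TXNRD1) and the mitochondrial genes (SOD2, PRDX3) were then set against each other within each embryo, as the mean of the first minus the mean of the second. A shift of a whole array cancels in this quantity, and only its change between groups can be read. It ran from -1.13 to 0.13 in AI (median -0.65), from -0.57 to 2.23 in IVD (median 0.76) and from -0.22 to 0.96 in IVF (median 0.24). For these genes the quantity was higher in both IVD and IVF than in AI, by 1.55 and 0.96 log2 units. Of the IVD embryos 11 of 14 lay above every AI embryo, and of the IVF embryos 9 of 15 did. No test is given for this score, because it joins genes chosen with their results known.

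SOD1 with SOD2, and TXNRD1 with PRDX3, were also set against each other. Both pairs were chosen with the differences of their genes known, so their values are a description, and they leave out TXN, which also entered the score and was higher in IVD by 1.21. SOD1 minus SOD2 averaged -2.96 ± 0.45 in AI, -0.50 ± 1.17 in IVD and -2.91 ± 0.69 in IVF (SD), a change of 2.46 from AI to IVD and 0.05 from AI to IVF. TXNRD1 minus PRDX3 averaged 1.69 ± 0.62, 2.14 ± 0.68 and 4.00 ± 0.74 in the same order, a change of 2.31 from AI to IVF. IVD embryos had the widest spread of SOD1 minus SOD2.

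**Figure D2:**
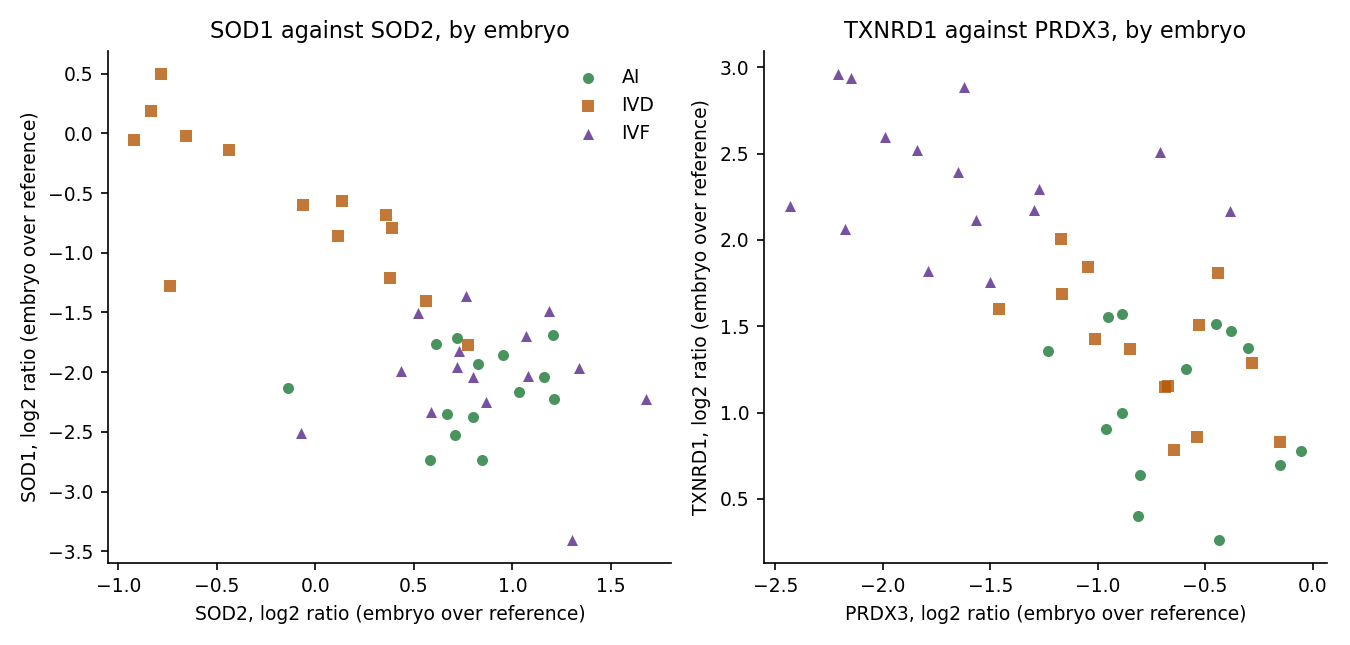
Log2 ratios of embryo over reference in each embryo, SOD1 (vertical) against SOD2 (horizontal) on the left and TXNRD1 (vertical) against PRDX3 (horizontal) on the right; each mark is 1 embryo, a circle for AI, a square for IVD and a triangle for IVF. On the left IVD embryos extend toward high SOD1 with low SOD2 while AI and IVF embryos mix, and on the right IVF embryos lie toward high TXNRD1 with low PRDX3, with a mean difference of 4.00 between these genes.

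Embryos were also grouped by dye bias, the part of the signal that does not turn with the dye swap. Of 3 clusters, the first held 5 AI, 14 IVD and 2 IVF embryos, the second 9 AI and 12 IVF embryos, and the third IVF embryo 7 alone. Within the second cluster IVF minus AI was 1.46 for TXNRD1, -1.11 for PRDX3, 0.10 for SOD1, 0.06 for TXN and -0.07 for SOD2. Within the first cluster IVD minus AI was 1.72 for SOD1, 1.18 for TXN, -0.84 for SOD2, 0.02 for TXNRD1 and -0.01 for PRDX3. The differences from AI that passed over all embryos had the same direction within these clusters. In the first cluster the 2 IVF embryos exceeded the 5 AI embryos by 0.77 for TXNRD1 and differed from them by -0.36 for PRDX3.

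Correlations among the 5 genes were then taken over the embryos of each group. Over the 10 pairs in 3 groups, or 30 relations, a permutation test of Pearson's r passed after Benjamini-Hochberg adjustment for 5 pairs in IVD, 1 in AI and 0 in IVF, where 0 pairs had an unadjusted p under 0.05 either. The weakest r that passed in IVD was 0.694. This limit was taken from the IVD pairs themselves, so how many of them reach it was fixed by the choice. Over all pairs of the 2345 named genes measured in every embryo, 0.961% in AI, 1.98% in IVD and 1.68% in IVF had an absolute r at least as high. The median absolute r of the 10 pairs was 0.179 among AI embryos, 0.648 among IVD embryos and 0.209 among IVF embryos. It was 0.211, 0.234 and 0.230 for all pairs of these 2345 genes. The 5 genes did not repeat equally well between an embryo's dye-swapped arrays. Among IVD embryos the least repeatable was PRDX3 (r = 0.955) and the most repeatable SOD2 (0.997). AI embryos had TXNRD1 as the lowest (0.761) and SOD2 as the highest (0.957). For IVF embryos the lowest was PRDX3 (0.304) and the highest SOD2 (0.782). The difference of correlations between groups was not tested, and neither was the part of this unequal repeatability in it.

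SOD1 and TXN varied together in AI embryos (r = 0.777, permutation test, adjusted p = 0.0136, and Spearman's rho = 0.829, adjusted p = 0.0123). Without the 2 embryos farthest from the SOD1 median, r was 0.841. In IVD embryos the same pair had r = 0.694 (permutation test, adjusted p = 0.0304) and rho = 0.771 (adjusted p = 0.0223). Without the 2 IVD embryos farthest from the SOD1 median, r was 0.571. SOD1 and TXNRD1 had r = 0.794 in IVD (permutation test, adjusted p = 0.0136) and rho = 0.750 (adjusted p = 0.0223), with r at 0.666 without the same 2 embryos. IVD embryos with high SOD1 thus tended to be high in both other cytosolic genes.

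SOD1 and SOD2 varied in opposite directions in IVD (r = -0.767, permutation test, adjusted p = 0.0136, and rho = -0.763, adjusted p = 0.0223). Without the 2 embryos farthest from the SOD1 median, r was -0.662. TXNRD1 and SOD2 did likewise (r = -0.764, permutation test, adjusted p = 0.0136, and rho = -0.732, adjusted p = 0.0235). Without the 2 embryos farthest from the TXNRD1 median, whatever their SOD2, r was -0.772. The mitochondrial genes SOD2 and PRDX3 varied together (r = 0.765, permutation test, adjusted p = 0.0136, and rho = 0.670, adjusted p = 0.0525). Without the 2 embryos farthest from the SOD2 median, r was 0.655. IVD embryos 12_1, 12_3 and 12_4 were extreme, with SOD1 at -0.06, 0.50 and 0.19 and SOD2 at -0.92, -0.78 and -0.83, while 12_2 was not, with SOD1 at -1.41 and SOD2 at 0.56. Without these 4 embryos the 5 correlations in the remaining 10 IVD embryos were 0.530 for SOD1 and TXN, 0.686 for SOD1 and TXNRD1, -0.552 for SOD1 and SOD2, -0.690 for TXNRD1 and SOD2 and 0.608 for SOD2 and PRDX3. With SOD2 from its first clone alone, r in IVD was -0.684 with SOD1, -0.665 with TXNRD1 and 0.801 with PRDX3 (permutation test, adjusted p = 0.0363, 0.0363 and 0.00636 over 12 relations).

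**Figure D3:**
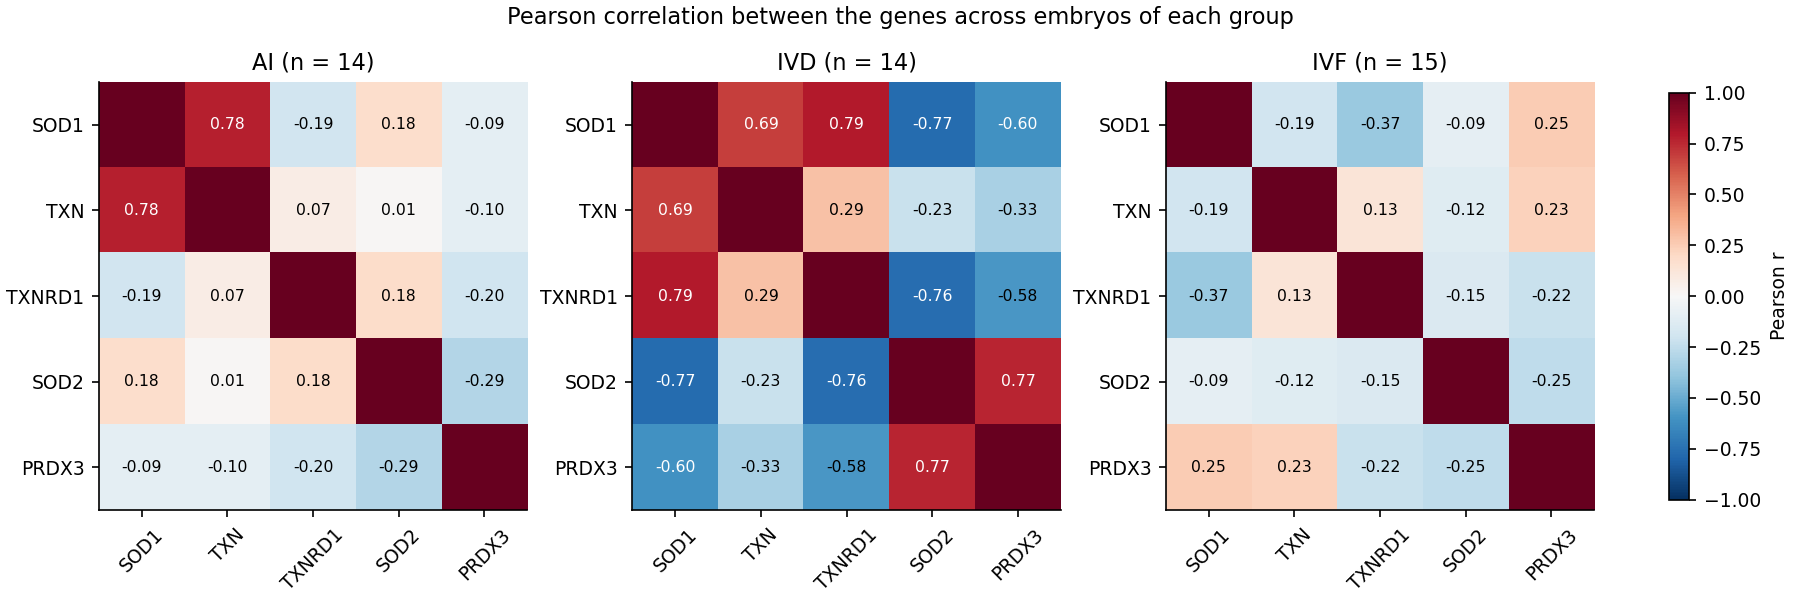
Pearson's r between each pair of the 5 genes over the embryos of each group, from -1 (blue) to 1 (red), one panel per group. In IVD SOD1 correlates with TXN and TXNRD1 at 0.694 and 0.794 and with SOD2 at -0.767, in AI the pair that passed is SOD1 and TXN at 0.777, and in IVF no pair passed the test.

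The genes with the ratio pattern most like each member, over 43 embryos and 2340 named genes measured in each, are given as a description, because group means and shared arrays enter these values. For SOD1 they were YIPF6 (r = 0.832), PTGS2 (0.829), the prostaglandin synthase, and PAGE4 (0.803). For TXN they were LAMTOR5 (0.808), RPS27 (0.783) and YIPF6 (0.779). For TXNRD1 they were CAND1 (0.766), JOSD1 (0.748) and GSPT1 (0.730). For PRDX3 they were TRAPPC6A (0.831), H2AZ1 (0.789) and LSM8 (0.747). For SOD2 they were ACAP2 (0.932), OXA1L (0.704) and ANAPC11 (0.699), the first through the second SOD2 clone described above. Over deviations from group means these values were lower, for example 0.611 for SOD1 with YIPF6, 0.383 for TXNRD1 with CAND1 and 0.643 for PRDX3 with TRAPPC6A.

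Other genes of these pathways were taken from lists of 71 genes, of which 36 were on the array and 30 could be tested. Between IVF and AI, 6 of the 30 were higher and 10 lower (19.9% and 17.7% of all features), with a median difference of -0.05 against 0.04 over all features. Between IVD and AI, 6 were higher and 7 lower (25.5% and 21.0% of all features; median -0.01 against 0.06). Between IVF and IVD, 6 were higher and 9 lower (22.3% and 25.2% of all features; median -0.02 against -0.01). No list was tested as a set.

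Among the other dismutation genes, CCS, the copper chaperone that loads SOD1, and CAT, the catalase of peroxisomes, passed in none of the 3 comparisons. CCS differed by 0.17 and CAT by 0.05 between IVF and AI (limma, adjusted p = 0.235 and 0.797), and by 0.18 and 0.11 between IVD and AI (adjusted p = 0.192 and 0.539).

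Among 5 other peroxiredoxins, 4 were lower and 0 higher in IVF than in AI, where 17.7% of all features were lower and 19.9% higher, and the median of the 5 was -0.44. PRDX4 of the endoplasmic reticulum fell by 0.58 (limma, adjusted p = 0.011), and the cytosolic PRDX1 and PRDX2 each fell by 0.44 (adjusted p = 0.0148 and 9.19e-04). PRDX6 fell by 0.38 (adjusted p = 0.00235), while PRDX5 stood at -0.05 (adjusted p = 0.809). On Cy3 arrays alone PRDX1, PRDX2 and PRDX6 did not pass, at -0.17, -0.22 and -0.24. On Cy5 arrays alone PRDX1 and PRDX2 were at -0.71 and -0.66 (adjusted p = 6.92e-04 and 8.45e-06). With values as deposited PRDX1, PRDX2 and PRDX6 stayed at -0.43, -0.43 and -0.37 without passing (adjusted p = 0.0795, 0.0571 and 0.1002). Between IVD and AI, PRDX2 fell by 0.65 (adjusted p = 2.99e-06, and 0.0541 with values as deposited). PRDX6 was 0.23 higher (adjusted p = 0.0494), which did not pass on arrays of either dye alone (adjusted p = 0.103 and 0.0800). PRDX1, PRDX4 and PRDX5 stood at -0.20, 0.14 and -0.32 in that comparison and did not pass.

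Of 6 other genes of the thioredoxin and glutaredoxin list, TXN2, the mitochondrial thioredoxin that reduces PRDX3, was lower in both comparisons with AI. Its group means were 0.77 ± 0.40 in AI, -0.15 ± 0.35 in IVD and -0.17 ± 0.63 in IVF (SD, n = 14, 14 and 15). It fell by 0.94 in IVF and by 0.92 in IVD (limma, adjusted p = 4.64e-05 and 4.55e-05). In IVD the cytosolic TXN was thus higher and the mitochondrial TXN2 lower than in AI. GLRX, the cytosolic glutaredoxin, fell by 0.71 in IVF relative to AI (adjusted p = 9.36e-04) and stood at 0.13 in IVD. TXNDC5, a protein disulfide isomerase of the endoplasmic reticulum, fell by 0.63 in IVD relative to AI (adjusted p = 1.78e-05, and 0.0574 with values as deposited) and was not past the threshold in IVF, at 0.21. TXNIP, which binds and inhibits thioredoxin, stood at -0.25 in IVF and 0.51 in IVD relative to AI, neither past the threshold. TXNDC9 stood at -0.09 and 0.56, and TXNL1 at -0.05 and -0.09, also without passing. Between IVF and IVD, TXNIP (-0.76), TXNDC9 (-0.65) and GLRX (-0.84) were lower in IVF (limma, adjusted p = 0.0281, 0.0294 and 6.0e-05). TXNDC5 was higher, at 0.85 (adjusted p = 4.53e-08), while TXN2 and TXNL1 did not pass, at -0.02 and 0.05. With dye-bias cluster as a block, TXNIP and TXNDC9 did not pass either (adjusted p = 0.640 and 0.801).

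In the list of the NRF2 transcription factor and NADPH supply, 4 of 9 genes were higher and 1 lower in IVF than in AI (19.9% and 17.7% of all features). The counts for IVD against AI were also 4 and 1 (25.5% and 21.0% of all features), but not of the same genes. HMOX1 and NQO1 were higher and TKT lower in both, NFE2L2 and ME1 were higher in IVF, and KEAP1 and NNT were higher in IVD. NQO1 stood at 0.33 in IVF relative to AI and at -0.12 on Cy3 arrays alone, and the ME1 difference of 0.87 did not pass under quantile normalization (0.52, limma, adjusted p = 0.142). In IVD relative to AI, NQO1 stood at 0.49, and at 0.18 on Cy3 arrays alone, where it did not pass (adjusted p = 0.317). TKT stood at -0.42 there, and at -0.17 with values as deposited, which did not pass (adjusted p = 0.548). HMOX1, the inducible heme oxygenase, was 1.91 ± 0.29 (SE) log2 units higher in IVF and 1.32 ± 0.29 higher in IVD than in AI (limma, adjusted p = 1.60e-06 and 2.92e-04). NNT, the mitochondrial transhydrogenase that supplies NADPH, was 1.58 ± 0.30 higher in IVD (limma, adjusted p = 3.13e-05) and stood at 0.58 in IVF (adjusted p = 0.108). KEAP1, which targets NRF2 for degradation, was 0.96 ± 0.11 higher in IVD than in AI (adjusted p = 1.56e-09) and stood at -0.11 in IVF relative to AI (adjusted p = 0.442), so that IVF was lower than IVD by 1.07 ± 0.11 (adjusted p = 8.82e-11). Of the 7 genes of the glutathione list, 2 were higher and 2 lower in IVF than in AI (19.9% and 17.7% of all features). In IVD against AI, 1 was higher and 2 lower (25.5% and 21.0% of all features). In IVF against IVD, 4 were higher and 2 lower (22.3% and 25.2% of all features). With values as deposited none of these 4 passed. APEX1, the DNA repair enzyme that thioredoxin serves, was lower in both comparisons with AI, by 0.60 in IVF and 0.78 in IVD (limma, adjusted p = 1.23e-05 and 5.30e-08).

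**Figure D4:**
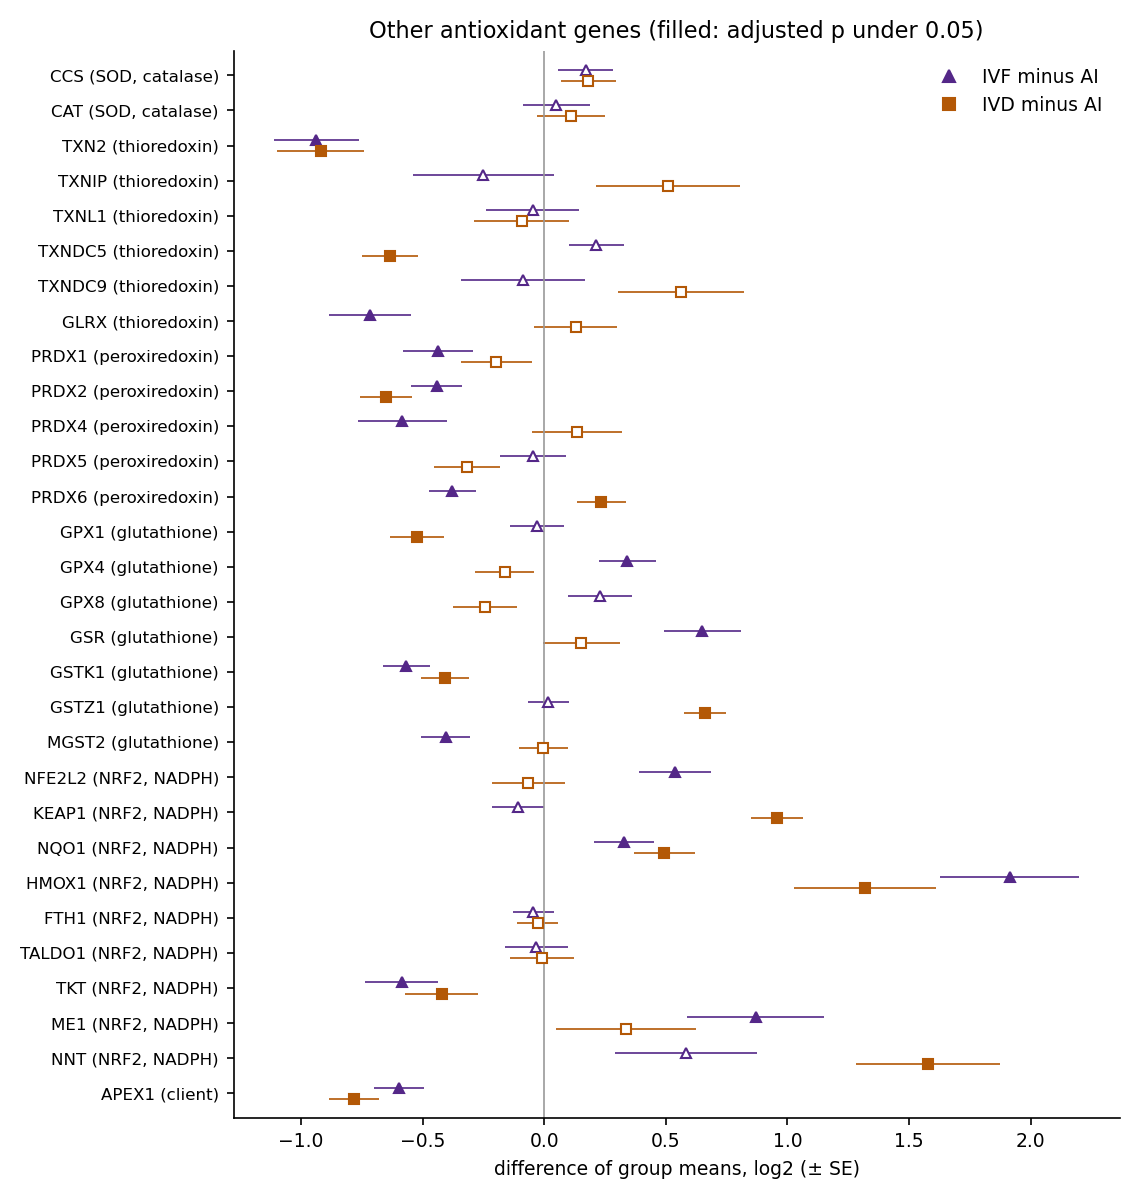
Differences of group means (log2 units) for the 30 tested genes of the listed pathways, IVF minus AI (triangles) and IVD minus AI (squares), with bars of ± SE and filled marks where limma's adjusted p was under 0.05. TXN2 lies at -0.94 and -0.92, HMOX1 is the highest in IVF minus AI at 1.91, and NNT is the highest in IVD minus AI at 1.58.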

How the data were processed

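The authors deposited 1 value table of log2 ratios for 86 arrays and 16416 rows, per the file headers and labels. No source used here states how the ratios were normalized. Empty cells (280751), cells reading "null" (3308) and 16 values at the table's ceiling were treated as missing, which left 20.1% of values missing. Signs were turned for arrays whose embryo was in Cy3. Arrays were centred on their medians over 5558 rows without missing values, and both arrays of an embryo were averaged.

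Rows needed values on both arrays in at least 7 embryos of every group, which kept 10757. Rows of a gene were averaged, giving 6278 features, 3433 of them named. Group means were fitted together in limma 3.58.1 (R 4.3.3), with Benjamini-Hochberg adjustment over all features. Correlations used 100000 permutations. The script was tested on simulated data.

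The genes named are the 5 members, all other genes of the dismutase, peroxiredoxin and thioredoxin lists, other listed genes past the threshold with a difference of at least 1, and 3 genes most like each member; APEX1, NQO1, TKT, NFE2L2 and ME1 were added after their values were seen. Members and lists were chosen with earlier results of these data known. Clones were not placed on a genome, and no sequences were used here. The number of arrays limits the precision.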

Additional observations from a re-analysis of the deposited data

How the results depend on the processing

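All 10 member differences that passed kept their direction and stayed past the threshold under 13 other ways of processing listed at the start and 3 added after seeing the data, each where it applies. Not all of these could move a difference. For SOD1, TXN, TXNRD1 and PRDX3, the other row filters, the median over rows and a fit of only the groups compared left it identical. Averaging IVD embryos 12_1 to 12_4 left IVF minus AI identical, and so did leaving out IVF embryo 7 for IVD minus AI. There only the spread and the adjustment could change. TXNRD1 IVD minus AI, which did not pass, passed with values as deposited (0.58) and on Cy3 arrays alone (0.38). Among differences that did not pass, SOD1 IVF minus AI ranged from -0.04 to 0.29, SOD2 IVF minus AI from -0.13 to 0.19 and PRDX3 IVD minus AI from -0.25 to 0.13, so their signs are not settled. Features called between IVF and AI numbered 2365, against 1325 with values as deposited and 1571 with rows measured in every embryo, where fewer rows are tested. With rows measured in every embryo they numbered 1770 between IVD and AI (2921 otherwise) and 1880 between IVF and IVD (2986 otherwise); the last was 1836 with dye-bias cluster as a block. With values as deposited the share of higher calls was 85.3% for IVD minus AI, against 54.9%, and 17.5% for IVF minus IVD, against 47.0%, and the median of all features moved to 0.32 and -0.27.

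The labels do not state what the embryo numbers shared by groups stand for. Deviations from group means of 21 same-numbered pairs correlated at -0.187 to 0.213, and 3 exceeded 0.1. Their median was 0.0057, against 0.0019 for pairs of different numbers. Whether same-numbered embryos share an origin was not tested. With embryo number as a replicate block, features called numbered 1606, 2053 and 2514 for IVF minus AI, IVD minus AI and IVF minus IVD. The blocked differences were 1.25 for TXNRD1 and -1.10 for PRDX3 between IVF and AI, and 1.48 for SOD1, 1.06 for TXN and -0.61 for SOD2 (limma, adjusted p = 0.0493) between IVD and AI.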
